A study of Mus musculus with 24 samples.

Results

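The proteasome subunit genes were taken as every gene whose symbol in the platform annotation starts with Psma, Psmb, Psmc, Psmd or Psme followed by a digit, with the inducible subunits Psmb8, Psmb9 and Psmb10 left out. The rule found 42 of 19057 symbols, carried by 75 probes. Of these symbols 40 were placed with the proteasome or its activators, 16 in the core, 20 in the cap and 4 among the activators. The other 2, Psmc3ip and Psme3ip1, were matched by their letters only and are no subunits. The cap count includes 3 chaperones of cap assembly, Psmd5, Psmd9 and Psmd10, which are called subunit genes here for short. A gene was tested where at least 1 of its probes was detected on 5 arrays or more, at a detection p under 0.01, and 36 of the 42 were, among 8943 genes tested in all. They were 11 core genes, 19 cap genes, 4 activators and the 2 genes matched by letters.

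RNA came from the gastrocnemius, a mainly fast-twitch muscle of the calf. The mice were males of the hybrid B6D2F1. Their groups were old mice under caloric restriction (24 months, 5 mice on 7 arrays), old mice fed ad libitum (24 months, 6 mice on 7 arrays) and young mice fed ad libitum (8 months, 6 mice on 10 arrays). All mice were of 1 strain and sex, and the labels name no other treatment or allele. Where the labels repeat a name, its arrays were treated as 1 mouse and averaged. Nothing in the labels says outright that different names are separate animals, so the p-values reflect only the spread between these samples, which may be technical. Values are log2 normalized signals of an Illumina bead array, which compare 1 probe between mice but not 1 gene with another.

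The proteasome is the cell's main machine for degrading proteins marked with ubiquitin. Its core is a barrel of alpha and beta rings, with the cutting sites on the beta subunits Psmb5, Psmb6 and Psmb7 facing inwards. The cap recognises ubiquitin, removes it, and uses a ring of ATPases to unfold the protein and feed it into the core. In skeletal muscle the system breaks down contractile proteins, and its subunits and the ubiquitin ligases that supply it are known to be raised together in several forms of muscle wasting.

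Counts of detected probes were similar across groups, while the scatter of the mice was not. For an alternative fit limma gave each mouse a weight, lower where its values scattered more. The weights ran from 0.57 to 1.09 in restricted, 0.44 to 1.26 in old ad libitum and 0.996 to 2.33 in young mice. The arrays detected 13625 to 14401 probes in restricted mice, 13974 to 14890 in old ad libitum mice and 13662 to 15176 in young mice. Each of the 4 chips held 6 arrays from all 3 groups. Of 8 defining genes of skeletal muscle 7 were measured, and their mean log2 signal per mouse ran from 14.92 to 15.08 in restricted, 14.97 to 15.15 in old ad libitum and 15.01 to 15.09 in young mice. In bulk muscle, fewer cells of a type and less RNA per cell cannot be told apart.

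With age, none of the 36 genes passed an adjusted p of 0.05 in limma (1 fit over 17 mice and 8943 genes, two-sided, Benjamini-Hochberg), where 2.06% of all genes did. At an unadjusted p under 0.05 there were 6, where 19.4% of all genes reached it. Under restriction, old restricted against old ad libitum mice, again none of 36 passed, beside 3.18% of all genes, and 7 had an unadjusted p under 0.05, beside 19.8%. In neither comparison was there a member whose 2 groups did not overlap, against 2.59% of all genes with age and 2.36% under restriction.

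Old restricted mice were also set against young mice, 2 groups that differ in both age and diet. Psmc3ip rose and no subunit gene passed, so 1 of 36 was called, beside 4.71% of all genes. There were 6 with an unadjusted p under 0.05, all higher in restricted mice, beside 21.5%, and none without overlap, beside 5.13%. In limma's F test for any difference among the 3 groups none of 36 passed, beside 7.17% of all genes, and 8 had an unadjusted p under 0.05, beside 27%. Read as shares of 36, none of these counts exceeded the share of all genes.

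For the 1 probe used per gene, the intervals bound how large a missed difference could be. They do not cover a gene's other probes. A second probe of Psme4, described below, gave -0.63 with age. The 95% interval lay within 0.5 log2 units of 0 for 33 of the 34 subunit genes with age, 31 under restriction and 30 for restricted against young mice, and within 1 unit for all 34 in each. Of all 8943 genes 7148, 6910 and 6843 had an interval within 0.5 in these comparisons. The genes whose interval went past 0.5 were Psmd2 with age, Psmd2, Psmd5 and Psma4 under restriction, and Psmc6, Psmd6, Psmd11 and Psme3 in restricted against young mice.

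**Figure D1:**
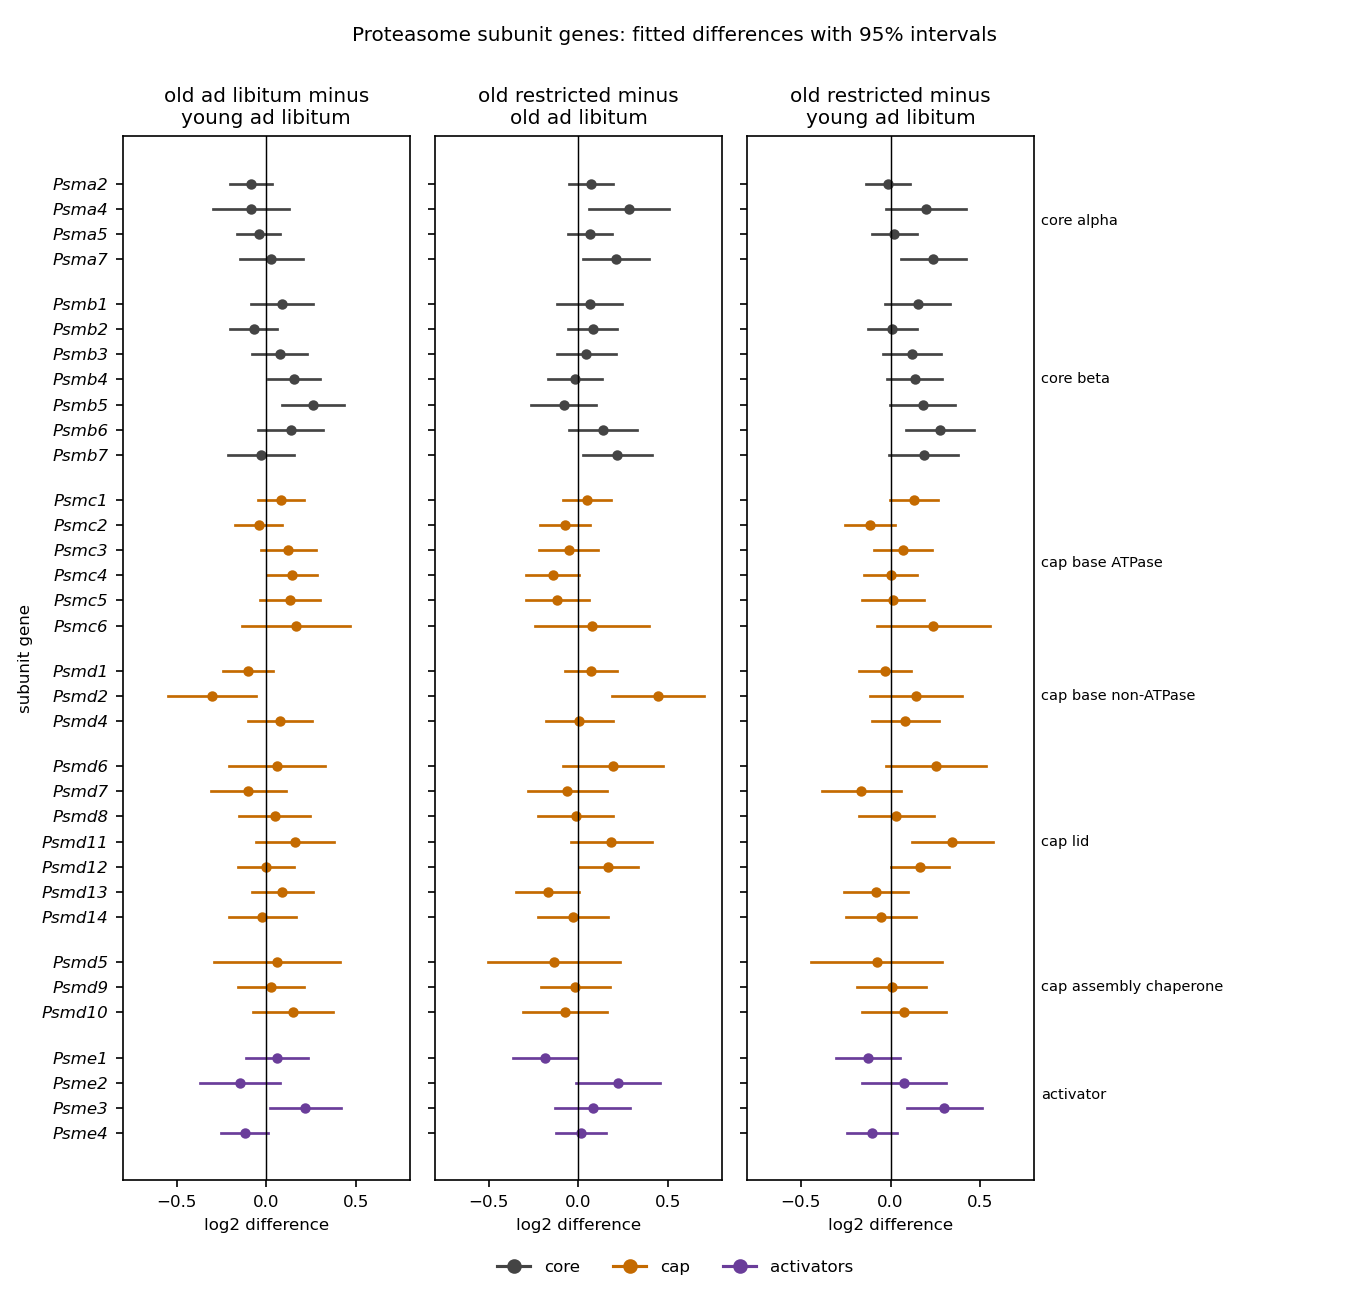
Fitted log2 difference (point) and 95% interval (line) of the 34 measured subunit genes in the 3 comparisons, grouped by role, with core genes in grey, cap genes in orange and activators in purple. Most intervals cross 0, and the point farthest from 0 is that of Psmd2 in old restricted minus old ad libitum mice, at 0.44.

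The core and the cap were described apart. The median log2 difference of the 11 core genes was 0.03 with age, 0.07 under restriction and 0.15 in restricted against young mice. Over all genes tested it was 0.02, -0.02 and -0.01. Core genes stood higher in the first-named group in 6, 9 and 10 of 11 cases, beside 54.2%, 44.7% and 48.3% of all genes. The 3 comparisons share mice, so the counts are not independent of each other. Core genes also varied together from mouse to mouse (median Pearson r 0.28), so the 11 are not independent cases.

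The 19 cap genes had medians of 0.06 with age, -0.02 under restriction and 0.03 in restricted against young mice, with 13, 8 and 13 of 19 higher. Within the cap the 6 base ATPases, which unfold the substrate, had a median of 0.13 with age, 5 of 6 being higher, and of -0.06 under restriction, with 2 of 6 higher. The 7 measured lid genes had medians of 0.05 and -0.02, and the 3 chaperones of cap assembly, Psmd5, Psmd9 and Psmd10, of 0.06 and -0.07. The 4 measured alpha genes, which form the outer rings of the core, had medians of -0.06 with age and 0.14 under restriction, all 4 being higher in restricted mice. The 7 beta genes had medians of 0.09 and 0.06, and all 7 were higher in restricted than in young mice. None of these genes passed in these comparisons.

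The mean of the core genes, each centred on its mean over the 17 mice, was 0.11, 0.15, 0.05, 0.07 and 0.04 in restricted mice 1 to 5. In old ad libitum mice the lowest was -0.11, the median -0.03 and the highest 0.08, and in young mice these were -0.14, -0.06 and 0.09. All 5 restricted mice were above 0, but 2 of the old ad libitum mice and 1 young mouse lay among them. The mean of the cap genes ran from -0.03 to 0.08 in restricted, -0.07 to 0.06 in old ad libitum and -0.10 to 0.02 in young mice, with wide overlap. As the members were chosen with earlier results known, no p is given for these means.

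**Figure D2:**
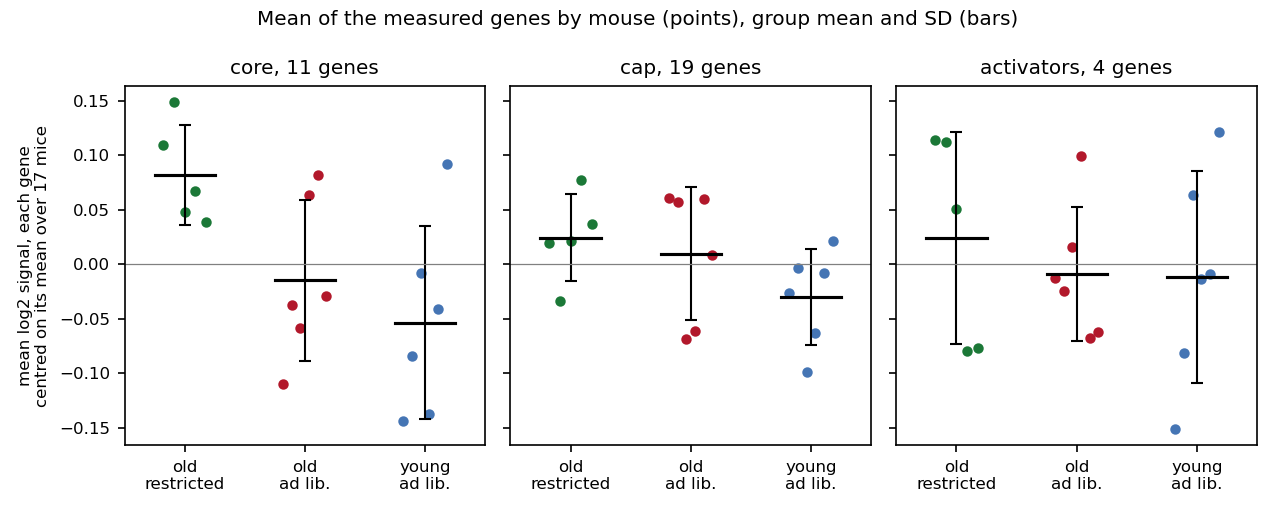
Mean log2 signal of the measured core, cap and activator genes in each mouse, every gene centred on its mean over 17 mice, with bars for the group mean and SD. The restricted mice lie between 0.04 and 0.15 for the core and overlap both other groups in every panel.

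The differences were also taken within each chip. Of the mice 5 had arrays on more than 1 chip, young mouse 6 on all 4, so the chips share mice and their values are not independent. On chips 1 to 4 the core median under restriction was 0.09, 0.03, 0.07 and 0.18, and in restricted against young mice 0.12, 0.10, 0.11 and 0.13. With age it was -0.01, -0.02, 0.01 and -0.05. A chip holds 1 to 3 arrays of a group, so these are values without a test.

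Psmb5 carries the chymotrypsin-like cutting site of the core. It measured 10.91, 11.02, 10.98, 10.65 and 10.74 in restricted mice, while old ad libitum mice ran from 10.86 to 11.08 with a median of 10.90 and young mice from 10.53 to 10.93 with a median of 10.65. Only young mouse 6 reached into the old ad libitum range. The difference with age was 0.26 ± 0.08 (SE; 95% interval 0.09 to 0.43, 1.20-fold), with an unadjusted p of 0.00547 that missed the threshold over all genes (limma adjusted p = 0.0954). Without young mouse 6 it was 0.31 and passed, with a limma adjusted p of 0.0465. It passed in 2 of 31 alternatives, and the adjusted p reached 0.226. On chips 1 to 4 the difference with age was 0.11, 0.22, 0.31 and 0.09. Under restriction the difference was -0.08 (interval -0.26 to 0.10).

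Psmb6 carries the caspase-like site. Restricted mice had 12.25, 12.32, 12.37, 12.35 and 12.31, old ad libitum mice 11.92 to 12.47 (median 12.19), and young mice 11.86 to 12.28 (median 12.06). The 5 restricted mice lay close together, above all young mice but the highest. The difference was 0.14 with age (interval -0.05 to 0.32), 0.14 under restriction (-0.05 to 0.33) and 0.27 in restricted against young mice (0.08 to 0.46, limma adjusted p = 0.0881). A second probe gave 0.13, 0.12 and 0.25. The difference with age was 0.08 without old ad libitum mouse 5, and that under restriction 0.08 without old ad libitum mouse 1.

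Psmb7 carries the trypsin-like site. Its values were 13.65, 13.59, 13.60, 13.51 and 13.32 in restricted mice, 12.98 to 13.45 (median 13.38) in old ad libitum mice and 13.18 to 13.52 (median 13.32) in young mice. Of the restricted mice 4 lay above all old ad libitum mice. The difference under restriction was 0.22 (interval 0.03 to 0.41, limma adjusted p = 0.191), and with age -0.03 (-0.22 to 0.15). The 4 probes of Psmb7 gave differences under restriction of 0.43, 0.20, 0.22 and 0.08.

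Among the non-catalytic beta genes, Psmb4 had the smallest p with age after Psmb5. It was at 13.35, 13.46, 13.29, 13.32 and 13.42 in restricted mice, 13.21 to 13.49 (median 13.41) in old ad libitum mice and 13.01 to 13.34 (median 13.27) in young mice. The groups overlapped, and the difference with age was 0.15 (interval 0.01 to 0.30, limma adjusted p = 0.231).

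Of the alpha genes, Psma4 had the smallest p under restriction. It measured 12.91, 12.87, 12.62, 12.62 and 12.37 in restricted mice, 12.20 to 12.67 (median 12.39) in old ad libitum mice and 12.24 to 12.66 (median 12.49) in young mice. Restricted mice 1 and 2 were above every other mouse, and restricted mouse 5 was within the range of the others. The difference under restriction was 0.28 ± 0.11 (SE; interval 0.06 to 0.50, limma adjusted p = 0.146). Without restricted mouse 5 it was 0.36, with a limma adjusted p of 0.048, the only 1 of 31 alternatives in which it passed. With other mice left out it went down to 0.22, and over the 31 the adjusted p reached 0.329.

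Psma7 had 12.05, 12.12, 11.88, 11.93 and 12.04 in restricted mice, 11.54 to 11.97 (median 11.83) in old ad libitum mice and 11.65 to 12.04 (median 11.71) in young mice. The difference under restriction was 0.21 (interval 0.03 to 0.39, limma adjusted p = 0.182), and in restricted against young mice 0.24 (0.06 to 0.42, adjusted p = 0.117). On chips 1 to 4 the difference under restriction was 0.20, 0.18, 0.43 and 0.36. The only old ad libitum array on chip 3 was that of mouse 6, the lowest of its group for Psma7. A second probe of Psma7 (ILMN_2630328) gave 0.28 under restriction (limma adjusted p = 0.0917 over all probes). On that probe restricted mice, 11.93 to 12.06, lay above old ad libitum mice, 11.39 to 11.88. Psma2 and Psma5 differed by 0.07 and 0.06 under restriction, with SDs between mice of 0.07 each.

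**Figure D3:**
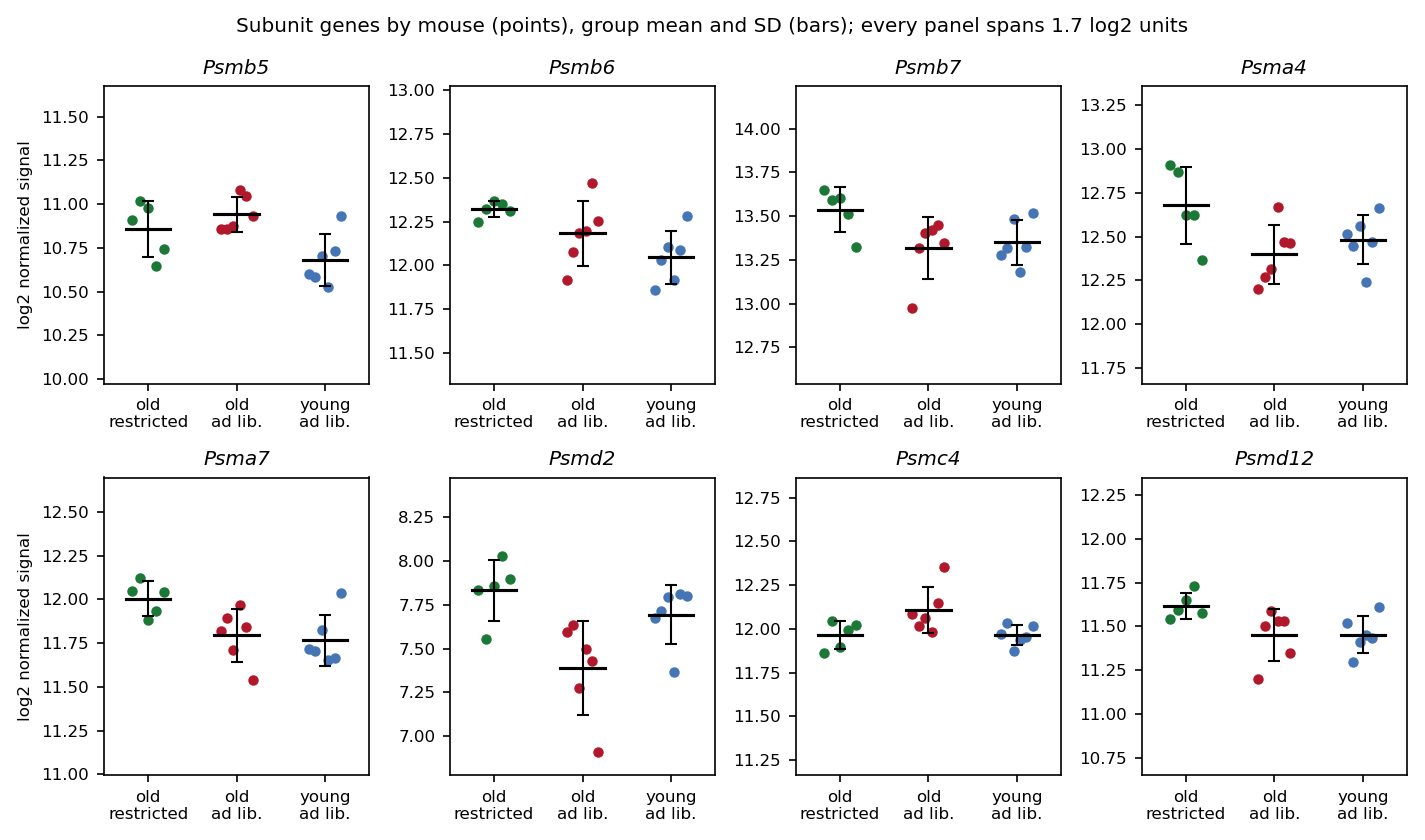
Log2 normalized signal of 8 subunit genes in each mouse (points), with the group mean and SD (bars), every panel spanning the same height. For Psmb5 the old ad libitum mice lie between 10.86 and 11.08 and the young mice between 10.53 and 10.93, and for Psmd2 the restricted mice lie between 7.55 and 8.03 and the old ad libitum mice between 6.91 and 7.64.

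The stretches before the start of the genes above were read because subunit genes are known to share control by Nfe2l1, a factor that binds antioxidant response elements with small Maf proteins. The promoter table of RefSeq (GRCm38.p6) held 33 of the 40 genes in 36 windows of 250 bases before to 50 after the start. The letters TGACNNNGC, searched on both strands, lay in 6 of 36 windows (16.7%), beside 12.4% of all 32851 windows. They were in Psmb5 and Psmb6 of the core, Psmc6, Psmd9 and Psmd12 of the cap, and Psme4. The 3 stretches below belong to core and cap genes named here, and capitals mark the matched letters.
Psmb5, chr14:54618014-54618062, minus strand: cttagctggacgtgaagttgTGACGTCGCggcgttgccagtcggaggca
Psmb6, chr11:70525328-70525356, plus strand: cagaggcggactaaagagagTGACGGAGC
Psmd12, chr11:107479278-107479309, plus strand: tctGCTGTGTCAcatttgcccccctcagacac
The match begins 47 bases before the start in Psmb5 and 9 bases before it in Psmb6, and in Psmd12 it is on the opposite strand, 247 bases before the start.

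The box CCAAT, bound by NF-Y, was in 13 windows (36.1%), beside 37.4% of all. It was in 7 of 13 core windows (53.8%) and 5 of 18 cap windows (27.8%). Psma7, one of the alpha genes with a small p under restriction, carried it in the stretch shown, in capitals, 196 bases before the start, and Psma2 carried it 54 bases before the start.
Psma7, chr2:180042636-180042680, minus strand: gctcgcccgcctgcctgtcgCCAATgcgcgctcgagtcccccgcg
Psma2, chr13:14613168-14613212, plus strand: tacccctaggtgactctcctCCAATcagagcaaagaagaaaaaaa
The letters GAAANNGAA, part of the interferon-stimulated response element, were in 6 windows (16.7%), beside 8.56% of all. A match is a description of the letters and shows no binding.

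Among cap genes Psmd2 had the difference farthest from 0 with age and under restriction, but not in restricted against young mice, where it was 0.14 and that of Psmd11 was 0.34. It codes for a large scaffold subunit of the base that docks ubiquitin receptors. Restricted mice had 7.83, 7.55, 7.86, 8.03 and 7.90, old ad libitum mice 6.91 to 7.64 (median 7.46), and young mice 7.36 to 7.81 (median 7.75). All restricted mice but mouse 2 lay above every old ad libitum mouse. The difference under restriction was 0.44 ± 0.12 (SE; interval 0.19 to 0.70, 1.36-fold), with an unadjusted p of 0.00201 and a limma adjusted p of 0.0561. With age it was -0.30 (interval -0.55 to -0.06, limma adjusted p = 0.166). Both comparisons use the old ad libitum mice.

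Psmd2's second probe gave 0.35 under restriction and -0.27 with age. On chips 1 to 4 the first probe gave 0.31, 0.35, 0.996 and 0.20 under restriction and -0.04, -0.48, -0.72 and -0.41 with age. Chip 3 held only 1 old ad libitum array, that of mouse 6, the lowest of its group for Psmd2 at 6.91. Over all 24 arrays with mouse as a random block the difference under restriction was 0.44 and passed (limma adjusted p = 0.0409), and with the chip added as a fixed term it was 0.46 (adjusted p = 0.0384). It passed in 6 of 31 alternatives, the others being no background correction and the fits without restricted mouse 2, old ad libitum mouse 1 or young mouse 4. With a mouse left out the difference under restriction ran from 0.35 to 0.51, and it was smallest, at 0.30, without background correction. Over the 31 its limma adjusted p ran from 0.0352 to 0.155. The difference with age lay between -0.37 and -0.20 over the 31.

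Psmc4, a base ATPase, had 11.86, 12.05, 11.90, 12.00 and 12.03 in restricted mice, 11.98 to 12.36 (median 12.07) in old ad libitum mice and 11.88 to 12.03 (median 11.96) in young mice. The differences were -0.14 under restriction (interval -0.29 to 0.00393) and 0.14 with age (0.00416 to 0.28), and neither passed (limma adjusted p = 0.266 and 0.246). Without old ad libitum mouse 6, the highest of all at 12.36, they were -0.09 and 0.09. Psmc3, the next ATPase by p with age, had 12.23, 12.24, 12.29, 12.17 and 12.37 in restricted mice, 12.03 to 12.49 (median 12.39) in old ad libitum mice and 12.13 to 12.26 (median 12.18) in young mice. Its difference with age was 0.12 (interval -0.03 to 0.28).

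Psmd12, a subunit of the lid, had 11.54, 11.59, 11.65, 11.73 and 11.57 in restricted mice, 11.20 to 11.59 (median 11.52) in old ad libitum mice and 11.30 to 11.61 (median 11.44) in young mice. The difference under restriction was 0.17 (interval 0.0026 to 0.33, limma adjusted p = 0.245), and a second probe gave 0.22. Psmd11, also of the lid and named here after its values were seen, had 10.74, 10.42, 10.65, 10.52 and 10.43 in restricted mice, 10.10 to 10.63 (median 10.39) in old ad libitum mice and 9.89 to 10.49 (median 10.23) in young mice. The restricted mice overlapped the highest young mouse, with a difference of 0.34 (interval 0.12 to 0.57, limma adjusted p = 0.0747), and the second probe of Psmd11 gave 0.15.

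Psmd1, a large scaffold subunit of the base whose probe was the brightest of the cap, had 13.79, 13.64, 13.77, 13.77 and 13.89 in restricted mice, 13.58 to 13.83 (median 13.71) in old ad libitum mice and 13.71 to 13.92 (median 13.78) in young mice. The differences were 0.07 under restriction (interval -0.08 to 0.21) and -0.10 with age (-0.24 to 0.03). Its second probe (ILMN_2496534) had no overlap between old ad libitum mice, 13.32 to 13.45, and young mice, 13.48 to 13.70, with -0.18 with age (limma adjusted p = 0.0873 over all probes) and 0.13 under restriction (adjusted p = 0.258). The third probe of Psmd1 (ILMN_2915861) gave 0.03 with age, the opposite sign, and 0.10 under restriction. On that probe old ad libitum mice, 9.27 to 9.49, overlapped young mice, 9.18 to 9.44. Psmd5, whose probe was the dimmest, had 6.25, 5.58, 6.39, 6.33 and 6.82 in restricted mice, 6.07 to 6.70 (median 6.43) in old ad libitum mice and 6.07 to 6.69 (median 6.30) in young mice. Its probe was detected on 5 of 7 restricted, 7 of 7 old ad libitum and 10 of 10 young arrays, and its intervals were wide (-0.51 to 0.23 under restriction).

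The activators replace or join the cap at the ends of the core. Psme1 and Psme2 form the interferon-inducible ring PA28 alpha and beta. Psme1 had 11.02, 11.02, 10.94, 10.72 and 10.79 in restricted mice, 10.89 to 11.34 (median 11.05) in old ad libitum mice and 10.94 to 11.09 (median 11.03) in young mice. The difference under restriction was -0.19 (interval -0.36 to -0.01, limma adjusted p = 0.236). A second probe gave -0.21 (limma adjusted p = 0.167 over all probes).

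Psme2 had 7.98, 8.04, 7.93, 7.79 and 7.96 in restricted mice, 7.52 to 7.96 (median 7.73) in old ad libitum mice and 7.54 to 8.22 (median 7.83) in young mice. Its difference under restriction, 0.22 (interval -0.02 to 0.46), had the opposite sign to that of Psme1. Neither passed.

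Psme3 codes for PA28 gamma, a nuclear activator that works without ubiquitin. It had 10.23, 10.39, 10.38, 9.97 and 9.86 in restricted mice, 9.97 to 10.36 (median 10.05) in old ad libitum mice and 9.77 to 10.03 (median 9.85) in young mice. The difference was 0.22 with age (interval 0.02 to 0.42, limma adjusted p = 0.218), 0.08 under restriction and 0.30 in restricted against young mice (0.09 to 0.51, limma adjusted p = 0.0892). Restricted mice 1 to 3 lay above all young mice, and restricted mice 4 and 5 among them.

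Psme4 codes for PA200, a large activator of the core. Its brighter probe (ILMN_2947187) had 13.30, 13.07, 13.02, 13.27 and 13.15 in restricted mice, 13.05 to 13.24 (median 13.15) in old ad libitum mice and 13.19 to 13.33 (median 13.28) in young mice. The difference with age was -0.12 (interval -0.25 to 0.01, limma adjusted p = 0.306), and under restriction 0.02 (-0.12 to 0.15).

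Genes with more than 1 kept probe showed how far a difference depended on the probe. There were 18 such genes, whose probes had 1 sign in 12 with age and in 14 under restriction, and whose probes lay a median of 0.06 and 0.09 log2 units apart. In a limma fit over all 13265 kept probes, 2 of 59 member probes passed with age, beside 3.15% of all probes, and 1 under restriction, beside 2.69%. Groups did not overlap for 3 member probes in each comparison, beside 3.09% and 2.19% of all. These probes, of Psmd1, Psmd7 and Psme4 with age and of Psma7, Psmb7 and Psmd7 under restriction, were named after their values were seen.

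The second probe of Psme4 (ILMN_1230087) had 8.29, 7.47, 7.80, 7.89 and 7.85 in restricted mice, 7.31 to 7.78 (median 7.43) in old ad libitum mice and 8.03 to 8.29 (median 8.08) in young mice. Every old ad libitum mouse lay below every young mouse. The signal fell with age by 0.63 on the log2 scale (SE 0.11, interval -0.86 to -0.40), with a limma adjusted p of 0.00821 over all probes. Under restriction the difference was 0.37 (0.12 to 0.61, limma adjusted p = 0.0911). Settings of scaling, chip, array choice and left-out mouse made 23, the fit above counted among them. The fall with age passed in all 23 and lay between -0.69 and -0.45, while the difference under restriction passed in 1. The 2 probes of Psme4 thus gave -0.63 and -0.12 with age.

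The second probe of Psmd7 (ILMN_1220284), a lid subunit that pairs with the deubiquitinase Psmd14, had 11.53, 11.41, 11.58, 11.68 and 11.54 in restricted mice, 11.15 to 11.37 (median 11.25) in old ad libitum mice and 11.45 to 11.63 (median 11.56) in young mice. The old ad libitum mice lay below all mice of both other groups. The signal fell with age by 0.29 (limma adjusted p = 0.0228) and rose under restriction by 0.30 (limma adjusted p = 0.0297), both over all probes and both against the same old ad libitum mice. The calls were kept in 20 of 23 settings with age and 17 of 23 under restriction, the fit above counted among the 23. The brighter probe of Psmd7 (ILMN_2630438) gave -0.10 and -0.06, and the remaining one (ILMN_1253915), detected on 6 arrays, gave -0.14 and 0.26. Which part of the transcripts each probe reads is not used here.

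**Figure D4:**
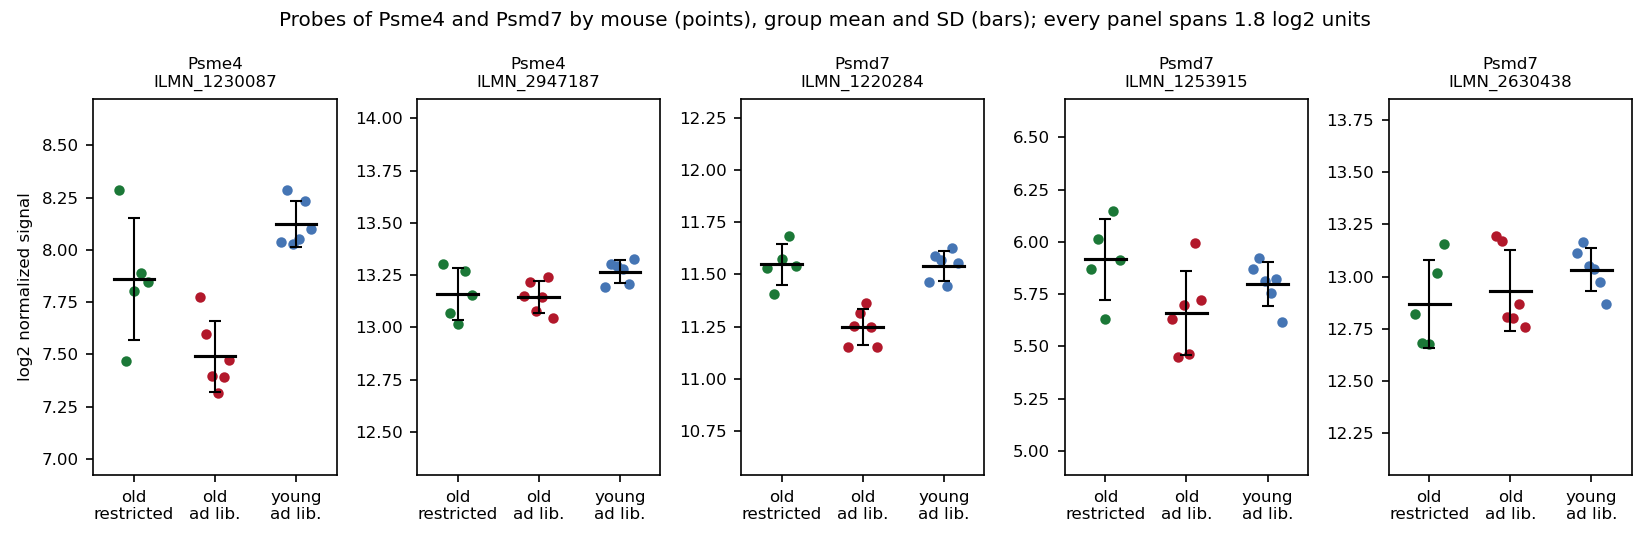
Log2 normalized signal of the kept probes of Psme4 and Psmd7 in each mouse (points), with the group mean and SD (bars). The old ad libitum mice separate from the young mice on ILMN_1230087 (7.31 to 7.78 against 8.03 to 8.29) and on ILMN_1220284 (11.15 to 11.37 against 11.45 to 11.63), and overlap them on the other 3 probes.

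The gene that did pass, Psmc3ip, codes for a partner of meiotic recombination proteins and was named for its binding to Psmc3. It had 7.69, 7.97, 7.83, 7.72 and 7.60 in restricted mice, 7.52 to 7.79 (median 7.68) in old ad libitum mice and 7.15 to 7.66 (median 7.44) in young mice. It rose in restricted against young mice by 0.35 ± 0.10 (SE; interval 0.15 to 0.56, 1.28-fold, limma adjusted p = 0.0454), with 4 of 5 restricted mice above all young mice. The call was kept in 14 of 31 alternatives and lost in 17 (limma adjusted p from 0.0208 to 0.116), among them the fit on those 2 groups alone (limma adjusted p = 0.0644) and leaving out restricted mouse 1.

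Of the 6 subunit genes that could not be tested, Psma1, Psma3 and Psma6 are alpha subunits of every core, and each had 1 probe, detected on 0 of 24 arrays. Psmd3, a lid subunit, had 2 probes, also detected on 0. These signals did not exceed the array's background, which says nothing of the genes' level in muscle. Psma8 and Psmb11, known from testis and thymus, had 3 probes detected on 0 arrays.

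The median SD between mice within groups was 0.13 for core genes, 0.15 for cap genes and 0.18 for all genes, and between repeated arrays of a mouse 0.06, 0.08 and 0.09. For Psma2, Psmb5 and Psmc3ip repeated arrays of a mouse scattered more than the mice did. Their SDs were 0.08, 0.16 and 0.17 between arrays and 0.07, 0.14 and 0.16 between mice. Among 1556 genes with a mean signal at or above that of the dimmest core gene the median SD between mice was 0.14. Of the 34 subunit genes 7 had an SD above the median of all genes, the largest being 0.31 for Psmd5, 0.27 for Psmc6, 0.23 for Psmd6 and 0.21 for Psmd2.

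Whether the genes moved together from mouse to mouse was described by correlating their deviations from the group means over 17 mice. The points share the arrays and their normalization. The 55 pairs of core genes had a median Pearson r of 0.28, and 76.4% were positive. The 171 cap pairs had a median of 0.06, and the 209 pairs of a core and a cap gene -0.02. Over all pairs of genes tested the median rounded to 0, and 50% were positive.

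Within the cap, Psmd1, Psmd2, Psmd4, Psmd7, Psmd8 and Psmc2 held the highest values, with r = 0.82 for Psmd4 and Psmd8, 0.78 for Psmd1 and Psmd7, and 0.77 for Psmc2 and Psmd7. Among core genes Psma4 and Psmb7 had 0.77 and Psma4 and Psmb5 0.73. Pairs across the core and cap held both signs, with Psmb6 and Psmd10 at 0.78, and the negative ones included Psmb5 with Psmd7 at -0.73 and Psmb7 with Psmd7 at -0.71. These pairs were picked as the most extreme of those computed.

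**Figure D5:**
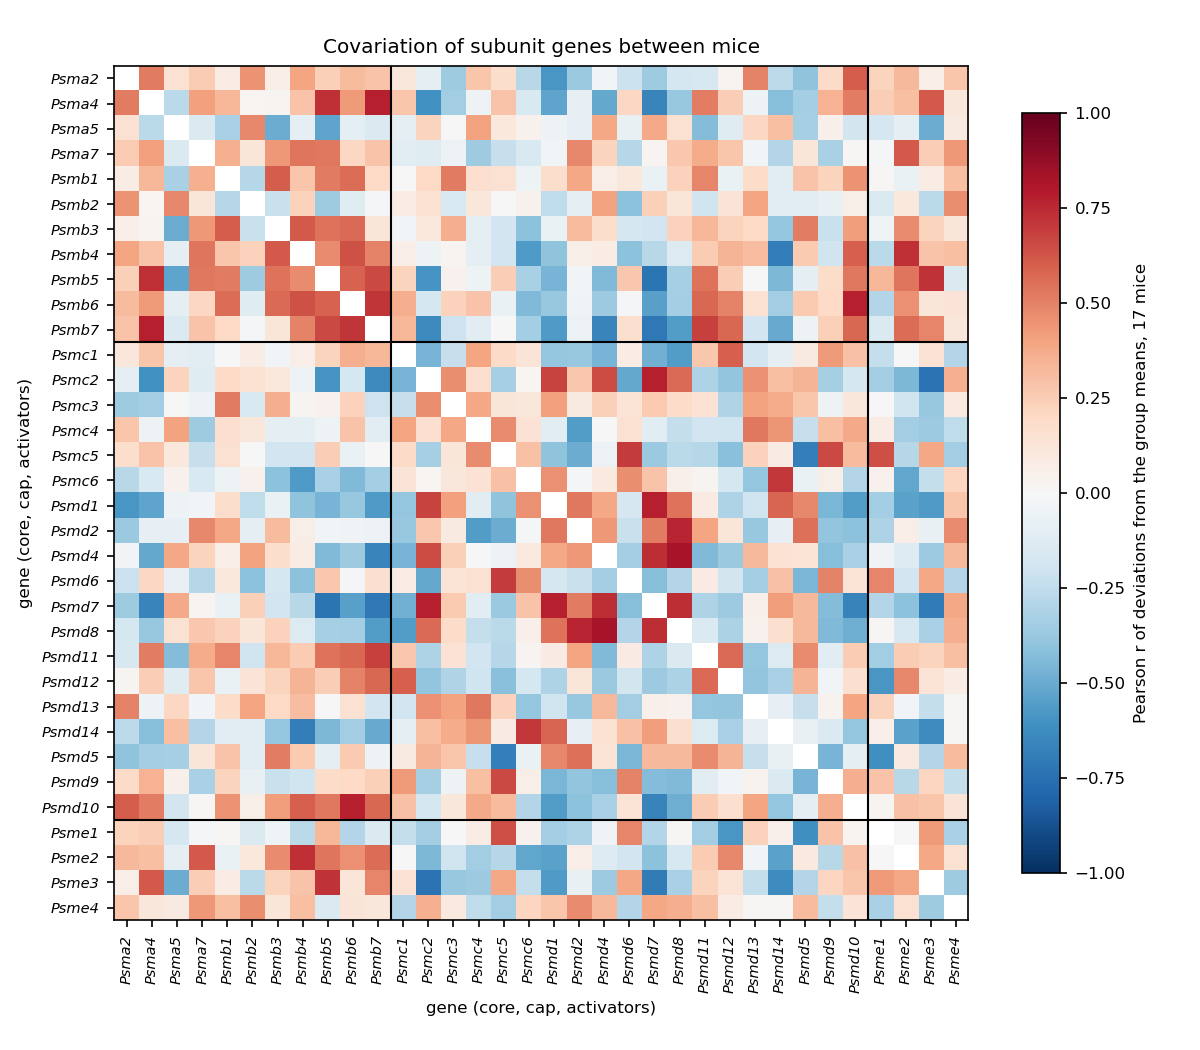
Pearson r between subunit genes of their deviations from the group means over 17 mice, with lines between core, cap and activators. The core block is mostly positive (median 0.28), and the block of core with cap holds both signs (median -0.02).

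The inducible subunits that the rule left out replace the catalytic ones in immune cells and under interferon. Psmb8, Psmb9 and Psmb10 were all lower in restricted than in old ad libitum mice, by a median of -0.31, and in old ad libitum mice they stood above young mice by 0.19, and none of the 3 passed. Their mean, centred over the mice, ran from -0.30 to 0.01 in restricted mice, from -0.14 to 1.09 (median 0.00411) in old ad libitum mice and from -0.23 to 0.18 in young mice. Old ad libitum mouse 1 alone held the 1.09, and the same mouse had the highest mean of 12 measured interferon response genes, at 0.98. It also had the lowest value of its group for 9 of the 34 subunit genes (Psma4, Psmb4, Psmb5, Psmb6, Psmb7, Psmc1, Psmd10, Psmd11 and Psmd12), the highest for 7, Psme1 among them, and the lowest core mean of its group, at -0.11. Such counts were not particular to this mouse. Old ad libitum mouse 6 was lowest for 10 and highest for 7, and mouse 4 was lowest for 8. Without old ad libitum mouse 1 the difference under restriction was 0.15 for Psmb7, 0.08 for Psmb6, 0.12 for Psmd12 and -0.13 for Psme1.

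The genes that build the proteasome and bring substrates to it gave no calls. Of 15 assembly factors and regulators 9 were measured, and their medians were -0.01 with age and -0.02 under restriction. Among them Pomp, which matures the core, differed by 0.17 with age and -0.19 under restriction, and the deubiquitinase Usp14 by 0.09 and 0.21. Of 19 genes of ubiquitin supply and shuttling 9 were measured, with medians of 0.07 and -0.02. The widest was Uba6, an enzyme that activates ubiquitin, at 0.53 with age (limma adjusted p = 0.0701).

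Of 14 genes known to control subunit transcription 9 were measured, with medians of -0.21 with age and 0.20 under restriction. Foxo4, a forkhead factor of the atrophy programme, fell with age by 0.48 on the log2 scale (limma adjusted p = 0.0272), and differed by 0.32 under restriction (adjusted p = 0.118). Nfe2l2, which induces subunit genes under oxidative stress, differed by -0.42 with age (adjusted p = 0.069) and 0.35 under restriction (adjusted p = 0.124). Nfe2l1, which does so when proteasome activity is short, differed by 0.08 and -0.15. So 1 of 9 passed with age, beside 2.06% of all genes, and 0 under restriction, beside 3.18%. An unadjusted p under 0.05 was reached by 5 of 9 with age, all lower in old mice, and by 5 of 9 under restriction, 4 higher and 1 lower in restricted mice, beside 19.4% and 19.8% of all genes. Both comparisons use the old ad libitum mice.

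Of 18 genes for ubiquitin ligases and partners linked to atrophy 15 were measured. None passed with age or under restriction, and 1 and 3 of the 15 had an unadjusted p under 0.05, beside 19.4% and 19.8% of all genes. The muscle ligases Fbxo32 and Trim63 differed by -0.40 and -0.36 with age and by 0.28 and 0.34 under restriction. In restricted against young mice Fbxo21, of the SCF ligases, rose by 0.59 (limma adjusted p = 0.0196), and Traf6 and Trim32, both RING ligases, fell by 0.37 and 0.26 (adjusted p = 0.0312 and 0.0382). These were 3 of 15 called, beside 4.71% of all genes, and no subunit gene passed in the same comparison.

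Markers of other cells and of slow fibres were read as well. In restricted against old ad libitum mice 3 of 14 measured macrophage and myeloid genes fell, beside 3.18% of all genes called in either direction, and the mean log2 level of the list ran from 7.41 to 8.00 in restricted and from 7.48 to 8.39 in old ad libitum mice. Of 10 slow fibre genes 1, Myh7, rose in restricted against young mice, beside 4.71% of all genes called, and the list ran from 8.68 to 11.85 in restricted and from 8.58 to 10.38 in young mice. All 10 were higher in restricted than in young mice (median 1.41) and than in old ad libitum mice (median 1.07). Of all genes 48.3% and 44.7% were higher. All 12 measured interferon response genes were lower in restricted than in old ad libitum mice (median -0.44), and none passed. All 7 measured fibroblast genes had lower values in old ad libitum mice than in young ones and none passed, the list running from 9.19 to 10.37 in old ad libitum and from 9.97 to 10.41 in young mice. Their part in the values of the subunit genes was not tested.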

How the data were processed

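Per the labels' protocols, total RNA was prepared with a QIAGEN RNeasy kit, and an Ambion MessageAmp kit gave the biotinylated cRNA. The deposited table holds, per the file headers, the average signal intensity and a detection p-value of each of 45281 probes on each array. The submitters' processing notes name GenomeStudio, with version and settings not given in the sources used here. A second table by the authors, the series matrix, gives linear intensity values with column medians of 98.6 to 98.7. It was used as an alternative and treated as quantile normalized, with any other scaling unknown.

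Background correction and quantile normalization were done by the neqc function of limma 3.58.1 (R 4.3.3) with an offset of 16, which takes the background from the detection p-values. This turned the deposited intensity into log2 values. The 15268 probes kept had a detection p under 0.01 on 5 arrays or more. Of all probes 34885 carried 1 symbol, 18 several and 10378 none listed, and 2003 kept probes without a single symbol were not tested. Of 3069 genes with several kept probes the probe with the highest mean was used. Arrays of a mouse were averaged, since repeated arrays were more alike than arrays of different mice. In deviations from each gene's mean, not in the signals themselves, the median correlation of repeated arrays was 0.668 (10 pairs). It was 0.0448 for different mice of a group. The number of arrays limits the precision.

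Differences between group means were tested in limma (lmFit, eBayes, 17 mice in 1 fit, Benjamini-Hochberg over all genes, threshold 0.05, two-sided), a procedure checked on simulated data. Named genes were every gene past the threshold, the 3 smallest p in core and in cap for age and for restriction, the catalytic subunits, the activators, and the brightest and dimmest probe of core and cap. The members, lists, alternatives and letters were chosen with earlier results of these data known. Same-numbered mice of different groups correlated at -0.25 to 0.19 in their deviations (median -0.04), so numbers were taken as names only. The sources used here do not give feeding state or time of day. Promoter sequences came from RefSeq (GRCm38.p6), and figures were drawn with matplotlib 3.10.9.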

Additional observations from a re-analysis of the deposited data

Results flagged for a closer look

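Among 60 groups of 5 or 6 mice tested for a single mouse far from the rest (a gap of more than Dixon's critical value), 4 stood out, and chance flags about 1 in 20 groups. Psmb4 was at 13.01 in young mouse 1, where the nearest young mouse had 13.23. Psmb7 was at 12.98 in old ad libitum mouse 1, where the nearest had 13.32, and this is the mouse with the high interferon response genes. Psmd2 was at 7.36 in young mouse 4, where the nearest had 7.67. Psme3 was at 10.36 in old ad libitum mouse 4, where the nearest had 10.08.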

How the results depend on the processing

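The medians of core and cap and the named differences were recomputed under 31 alternatives, and counts of members called moved in several. With age the count was 1 with 75th percentile scaling (Psmb5), 1 with the mean of a gene's probes (Psme4), 2 with every probe tested (Psmd7 and Psme4), and 0 to 1 with a mouse left out. Under restriction it was 1 (Psmd2) without background correction, with mouse as a random block over 24 arrays and with chip as a fixed term, 1 with every probe (Psmd7), and 0 to 1 with a mouse left out. For restricted against young mice it was 2 with 75th percentile scaling (Psmb6 and Psmc3ip), 2 with chip as a fixed term (Psmc3ip and Psme3), 5 with array weights (Psma7, Psmb6, Psmc3ip, Psmd11 and Psme3), and 0 to 4 with a mouse left out, 4 without young mouse 6 and 3 without restricted mouse 5. It was 0 without a detection filter, with 1 array per mouse, with mouse as a random block over 24 arrays, with every probe, and in the fit on those 2 groups. With the replicate block the count was 0 in all 3 comparisons, and Psmc3ip differed by 0.37 (limma adjusted p = 0.0609). In the F test the count was 1 with 75th percentile scaling (Psmc3ip), with 24 arrays (Psmd2) and with mean probes (Psme4), 2 with chip and with every probe, 4 with array weights, and 0 to 3 with a mouse left out. Scaling to the 75th percentile raised the medians with age to 0.11 (core) and 0.13 (cap), and for restricted against young mice to 0.24 and 0.10, while the median of all genes shifted by 0.04 and 0.03. With every probe the cap median under restriction was 0.0349. With a mouse left out the core median ran from -0.01 to 0.08 with age, 0.06 to 0.10 under restriction and 0.13 to 0.18 for restricted against young mice, and the cap median from 0.05 to 0.08, -0.04 to 0.01 and 0.02 to 0.07. The difference of Psmb7 with age was 0.0827 with 75th percentile scaling and -0.0654 to 0.0370 with a mouse left out, and that of Psme4 under restriction -0.0204 to 0.0519. The causes were not tested, beyond the fewer mice, other probes or genes that an alternative sets by construction. Signal over background limits the dim probes of Psmd5 and Psmd2.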
